A study of Homo sapiens with 12 samples.

Results

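Cadherins are calcium-dependent adhesion molecules of the cell surface, and the 93 genes described here are the cadherin (CDH) and protocadherin (PCDH) genes among the 58278 genes listed for HK2 cells. They were chosen by name, as CDH followed by digits only or any symbol that begins with PCDH, without pseudogene names and without PCDH11Y. PCDHA14, which the name rule keeps, is annotated as a transcribed pseudogene in GENCODE 44 and was not tested. The set holds 5 type I and 13 type II classical cadherins, 5 other CDH genes, 12 non-clustered protocadherins, 54 protocadherins of the alpha, beta and gamma clusters (16 PCDHA, 16 PCDHB and 22 PCDHG) and 4 antisense genes of PCDH9. HK2 is an immortalized human line with features of proximal tubular epithelial cells (TECs), so each group describes 1 line. The libraries formed 6 groups of 2 biological replicates. Cells of the Ctrl group were untreated, and TN cells received TNF-α, an inflammatory cytokine, at 5 ng/mL for 3 h. The other 4 groups had the same TNF-α together with 24 h of a short-chain fatty acid (SCFA). In PRTN and BUTN the SCFA, 15 mM propionate or 3 mM butyrate, came first, and in TNPR and TNBU the TNF-α came first. No group had an SCFA without TNF-α, and the labels name no group with a matching 24 h without an SCFA. The labels also carry a general protocol that mentions thapsigargin and JQ1, and groups were taken from the individual library labels instead, which give TNF-α and the SCFA.

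Classical cadherins join neighbouring cells through their outer domains, and their cytoplasmic tails bind catenins that link the junction to actin. Type I members (CDH1, CDH2, CDH3, CDH4 and CDH15, also known as E-, N-, P-, R- and M-cadherin) and type II members such as CDH6 (K-cadherin) and CDH5 (VE-cadherin) differ in how the outermost domains grip each other, and cells tend to sort by the cadherins they carry. The tubular epithelium of the kidney is known for CDH16 (kidney-specific cadherin) and CDH6, and proximal tubule cells of the human kidney carry CDH2 besides or in place of CDH1. Protocadherins have more outer repeats and weaker adhesion. The clustered ones are transcribed from a row of alternative first exons, each with its own promoter, and in the alpha and gamma clusters these are joined to shared last exons.

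Values are expected counts, the number of reads that RSEM assigned to a gene, here given as CPM, a share of the library's total after scaling with TMM factors. The libraries held 27269986 to 33851130 expected counts, so that 3 counts, taken as the limit of detection, stood at 0.0867 to 0.112 scaled CPM. The replicates differed most in TNPR and TNBU, where the chi-square statistic per gene was 16.8 and 20.1, against 3.35 to 7.16 in the other groups. Tests used limma-voom over all 12 libraries with Benjamini-Hochberg adjustment over the 24342 genes that passed the filter on low counts, and a call of higher or lower needed both an adjusted p under 0.05 and a change of more than 1.5-fold. With 2 replicates a group, p-values measure the spread between these cultures only, and in RNA from whole cultures a change in the share of cells that express a gene and a change of its RNA per cell cannot be told apart. Of the 93 members, 60 passed the filter, 26 had counts but too few, and 7 had none in any library. Keratins and other epithelial markers were present, with 7 of the 8 listed at 1 CPM or more in every group. Of the 12 listed proximal tubule markers, 4 had a mean of 1 CPM or more in Ctrl, where the list summed to 315 to 323 CPM. Another 4, LRP2, SLC22A6, SLC22A8 and HNF4A, were at 0 in both Ctrl libraries.

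Among the CDH and non-clustered PCDH genes of untreated cells, CDH6, CDH2, CDH16 and CDH24 had the highest levels. Per kilobase of merged exon (GENCODE 44), CDH6 stood at 89.0 CPM in Ctrl, followed by CDH2 at 32.3, CDH16 at 23.2, CDH24, a type II cadherin, at 18.2 and PCDH7 at 7.18, and the next of these genes, CDH17, was at 0.459. The SDs of neighbours in this order did not overlap in Ctrl among the first 5. Of the clustered genes, PCDHGC3 had the highest level, at 27.9. In TN, CDH16 at 16.0 ± 1.9 and CDH24 at 15.3 ± 1.7 CPM per kilobase did not differ beyond their spread. CDH1 was near the limit of detection without an SCFA, at 0.240 and 0.294 CPM in Ctrl and 0.0745 and 0.144 in TN. In GRCh38 (GENCODE 44) CDH6 lies at chr5:31193686-31329146 on the plus strand, CDH24 at chr14:23047062-23057538 and CDH16 at chr16:66908122-66918917 on the minus strand, and CDH3 (chr16:68636189-68727468) and CDH1 (chr16:68737292-68835537) are neighbours on the plus strand. Which transcript of a gene was in use is not known, and the merged length can understate the level of a gene with long rare exons.

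TNF-α alone changed few members. Of the 60 tested, 0 were higher and 2 lower in TN than in Ctrl, where 0.764% and 0.534% of all tested genes were called higher and lower, 1.3% in all. PCDH7, a non-clustered protocadherin, was 92.4 and 93.0 CPM in Ctrl and 46.2 and 56.3 in TN, without overlap. This fall was -0.86 ± 0.11 (SE) on the log2 scale with a limma-voom adjusted p of 9.08e-04, and it was called with each of the 12 libraries left out in turn, though not in a fit of Ctrl and TN alone (adjusted p 0.0750). The other call was PCDH17, with 7 counts over both Ctrl libraries and 0 over both TN libraries (at least 1.12-fold lower against a limit of 3 counts per library). It was lost in limma-voom when any of the 12 libraries was left out, with adjusted p of 0.0513 to 0.290, and was not called by edgeR or DESeq2, which called PCDH7 and PCDH10 (DESeq2 gave PCDH17 no adjusted p). PCDH10 was 4.29 and 3.66 CPM in Ctrl and 2.09 and 2.98 in TN, -0.66 ± 0.20 on the log2 scale with an adjusted p of 0.103 in limma-voom. CDH6 and CDH16 had adjusted p under the threshold but fold changes of 1.48 and 1.45, just under 1.5. CDH6 was 1091 and 1122 CPM in Ctrl and 744 and 755 in TN (-0.56 ± 0.13 log2, adjusted p 0.0351), and CDH16 was 87.4 and 78.9 in Ctrl and 52.4 and 62.2 in TN (-0.54 ± 0.12, adjusted p 0.0327). Their libraries did not overlap, and scaling by library size alone called both lower.

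With an SCFA the set shifted in both directions. Against TN, the members called higher and lower numbered 21 and 6 (PRTN), 25 and 5 (BUTN), 21 and 5 (TNPR) and 27 and 5 (TNBU). DESeq2 called 17 rather than 27 higher in TNBU, and over all tested genes 4954 rather than 6094. Over all tested genes the shares called higher were 23.9%, 23.1%, 24.9% and 25%, and those called lower were 16.7%, 14.8%, 16.9% and 16.5%, or 40.6%, 37.9%, 41.8% and 41.6% in either direction. The 4 comparisons share the TN libraries, and the labels give TN no time beyond its 3 h, so that the SCFA and any difference of time in culture cannot be told apart. The members higher in all 4 numbered 18, namely CDH1, CDH3, CDH4, CDH15, CDH5, CDH11, CDH22, CDH24, CDH17, CDH23, PCDH1, PCDH7, PCDH9, PCDH10, PCDH12, PCDH17, PCDHA12 and PCDHB16. The 5 lower in all 4 were CDH2, CDH6, CDH16, PCDHGA7 and PCDHGC3. A further 14 were called in some comparisons, 23 in none, and 0 in opposite directions. In 21 members all 8 SCFA libraries lay above all 4 libraries without SCFA, and in 5 all 8 lay below, which was true of 27.6% and 23.4% of all tested genes. The filter was met over all 12 libraries, so a member could pass through its SCFA libraries alone. Of the 60 tested members, 12 would not have passed on the 4 libraries without SCFA, among them CDH15, CDH22 and PCDHA12 of the 18 higher members. All counts of members called or not overlapping are therefore descriptions of the genes tested, not of all 93.

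By class, of the 22 tested CDH and non-clustered PCDH genes, 16 were higher (72.7%) and 3 lower (13.6%) in PRTN, and the same numbers held in BUTN. Their median log2 fold change was 2.24 in PRTN and 2.03 in BUTN, or 2.09 and 1.65 with genes at the limit of detection set to their bound. The median over all tested genes was 0.0855 and 0.0788. Of the 38 tested clustered members, 5 were higher and 3 lower in PRTN (13.2% and 7.89%), and 9 and 2 in BUTN (23.7% and 5.26%). The shares over all tested genes were 23.9% higher and 16.7% lower in PRTN, and 23.1% and 14.8% in BUTN.

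**Figure D1:**
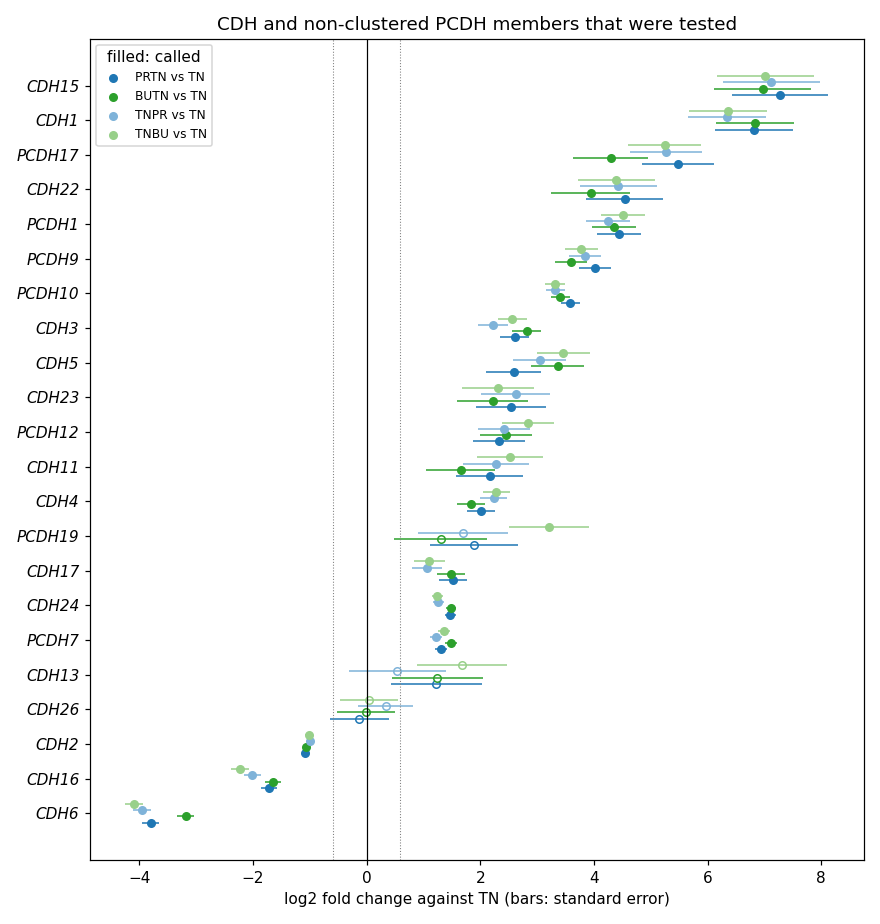
Log2 fold changes against TN (x axis, bars are standard errors) of the 22 tested CDH and non-clustered PCDH genes, with 1 colour per SCFA group, filled points for genes called and dotted lines at a fold change of 1.5. CDH6, CDH16 and CDH2 lie left of 0 in all 4 groups, 16 genes lie right of the dotted line with filled points in all 4, and CDH13 and CDH26 have open points only.

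CDH6, the most abundant member without an SCFA, had the most negative called change of all members in each SCFA group. Its level was 1091 and 1122 (Ctrl), 744 and 755 (TN), 53.6 and 54.0 (PRTN), 84.4 and 80.9 (BUTN), 61.9 and 37.9 (TNPR) and 51.7 and 37.8 (TNBU) CPM. All 8 SCFA libraries were below all 4 others. The log2 fold change against TN was -3.80 ± 0.15 (PRTN), -3.18 ± 0.15 (BUTN), -3.95 ± 0.16 (TNPR) and -4.09 ± 0.16 (TNBU) (SE), with limma-voom adjusted p of 1.39e-09 to 7.40e-09. Of its merged exon bases, 8.91% are also annotated to a pseudogene on the same strand, DUX4L51.

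CDH16 fell with it. The level was 87.4 and 78.9 (Ctrl), 52.4 and 62.2 (TN), 17.9 and 16.7 (PRTN), 17.9 and 18.6 (BUTN), 16.5 and 12.1 (TNPR) and 14.5 and 10.4 (TNBU) CPM, and again no SCFA library overlapped a library without SCFA. The log2 fold change was -1.72 ± 0.14 (PRTN), -1.64 ± 0.14 (BUTN), -2.01 ± 0.15 (TNPR) and -2.22 ± 0.16 (TNBU), with adjusted p of 1.57e-07 to 9.16e-07. The listed proximal tubule markers summed to 273 to 323 CPM without an SCFA and 169 to 201 with one. Of the 9 tested, 5 were higher and 1, GGT1, lower in each SCFA group. Over all tested genes 23.1% to 25% were higher and 14.8% to 16.9% lower. GGT1, a brush border enzyme, had log2 fold changes of -1.60 to -1.42. AQP1, the water channel of the proximal tubule, rose by 3.79 to 5.02 and CUBN, an endocytic receptor, by 1.00 to 1.42. The largest fold change of the list was 5.79 to 6.84 over the 4 groups, beyond that of AQP1. The part of these markers in the fall of CDH6 and CDH16 was not tested.

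CDH2 fell less. It stood at 275 and 279.6 (Ctrl), 314 and 301 (TN), 142 and 147 (PRTN), 149.7 and 144 (BUTN), 149 and 160.0 (TNPR) and 155 and 148 (TNBU) CPM, so that the TN libraries were the highest and all SCFA libraries lay below all others. The log2 fold change of -1.09 to -0.99 had standard errors of 0.06 and adjusted p of 1.03e-08 to 1.98e-08.

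**Figure D2:**
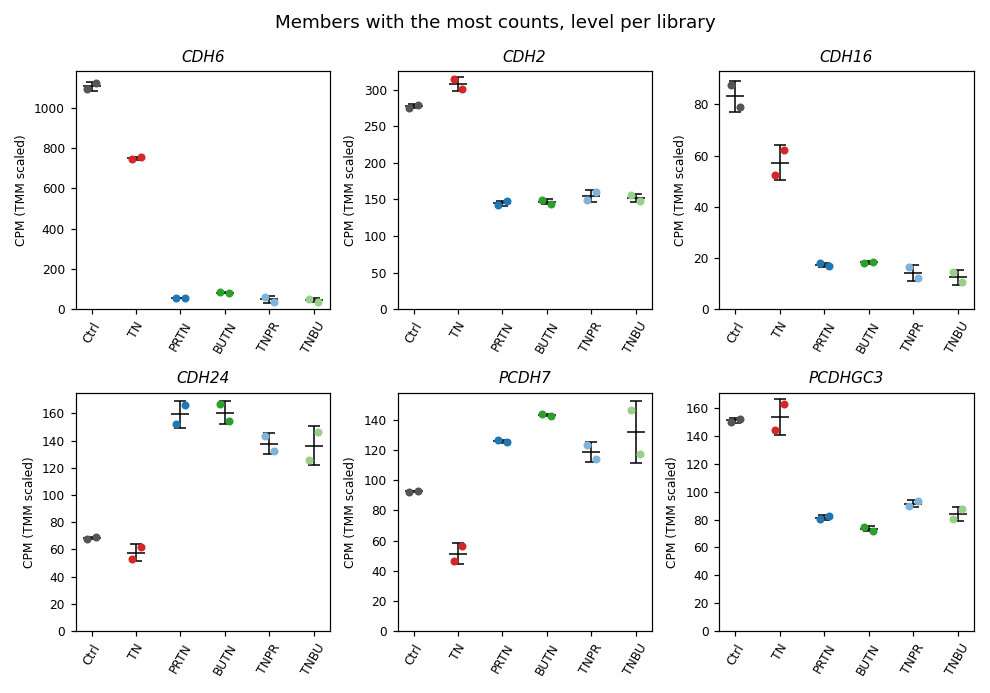
Level in CPM (y axis, from 0) of the 6 members with the highest levels in each of the 12 libraries (points), by group, with the mean and SD of 2 replicates. CDH6, CDH2, CDH16 and PCDHGC3 are lower in all 8 SCFA libraries than in the 4 without SCFA, while CDH24 and PCDH7 are higher.

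CDH24 moved the other way and had the highest level per kilobase of the classical cadherins in each SCFA group, although in CPM CDH2 lay above it in both libraries of TNPR and TNBU. Its level was 67.6 and 68.9 (Ctrl), 53.0 and 61.9 (TN), 152 and 166 (PRTN), 167 and 155 (BUTN), 143 and 132 (TNPR) and 126 and 146 (TNBU) CPM, and all SCFA libraries lay above all others. The log2 fold change was 1.47 ± 0.09 (PRTN), 1.49 ± 0.09 (BUTN), 1.26 ± 0.09 (TNPR) and 1.24 ± 0.09 (TNBU), with adjusted p of 5.30e-08 to 2.69e-07. Of the summed level per kilobase of the 18 classical cadherins, CDH24 made up 13.0% in Ctrl and 13.7% in TN, against 61.0% (PRTN), 59.1% (BUTN), 57.5% (TNPR) and 57.5% (TNBU) with an SCFA. The share of CDH6 was 63.5% in Ctrl and 53.8% in TN and stood between 5.70% and 9.15% in the SCFA groups. That of CDH2 was 23.1% in Ctrl, 32.0% in TN and 23.6% to 28.2% in the SCFA groups. These shares describe RNA and were not tested.

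**Figure D3:**
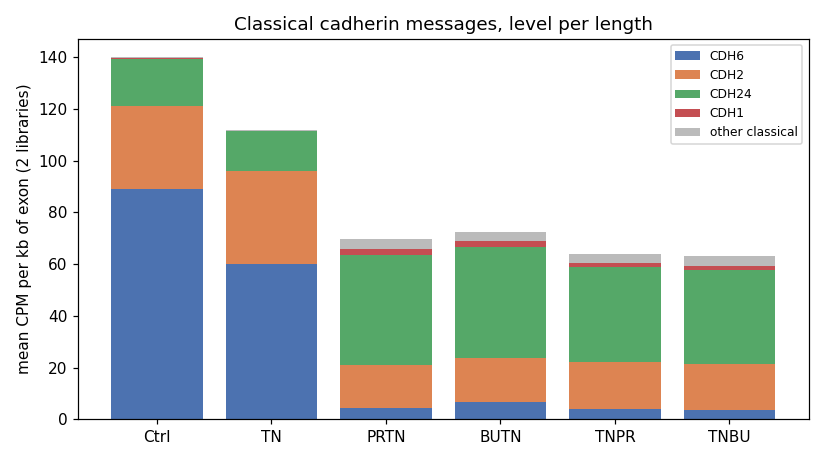
Mean level in CPM per kilobase of merged exon (y axis, from 0) of the classical cadherins, stacked by gene for each group of 2 libraries. CDH6 makes up 63.5% of the Ctrl bar and 6.21% of the PRTN bar, and CDH24 13.0% and 61.0%.

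The other type I cadherins were low or at the limit of detection without an SCFA and were called higher in all 4 SCFA groups. CDH1, the main cadherin of epithelial adherens junctions, was at 0.240 and 0.294 (Ctrl), 0.0745 and 0.144 (TN), 14.3 and 13.4 (PRTN), 14.4 and 13.7 (BUTN), 10.8 and 9.08 (TNPR) and 12.2 and 8.37 (TNBU) CPM. All SCFA libraries lay above all others, and the replicates of TNBU were the farthest apart. On the log2 scale the rise was 6.81 ± 0.68 (PRTN), 6.84 ± 0.68 (BUTN), 6.34 ± 0.68 (TNPR) and 6.36 ± 0.68 (TNBU), with adjusted p of 2.76e-06 to 5.43e-06, and these fitted values lean on TN libraries with few counts. CDH1 made up 2.56% to 3.27% of the classical level per kilobase in the SCFA groups.

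CDH15, the cadherin of muscle cells and cerebellum, was at 0 in both Ctrl libraries and had 1 count over both TN libraries. With an SCFA it stood at 4.81 and 4.96 (PRTN), 4.38 and 3.58 (BUTN), 4.44 and 4.35 (TNPR) and 3.22 and 5.11 (TNBU) CPM. The ratio to TN was 272 in PRTN with an exact 95% counting interval of 47.6 to 10578, and 222 (38.6 to 8602) in BUTN. CDH3, known from basal epithelia and placenta, was 1.12 to 1.92 CPM in the 4 libraries without SCFA and 5.56 to 9.34 in the 8 with one (2.23 to 2.82 log2, adjusted p 1.33e-06 to 1.09e-05). CDH4, known from retina and from developing kidney, was 1.55 to 2.19 and 6.21 to 10.5 CPM (1.84 to 2.29 log2, adjusted p 4.53e-06 to 3.86e-05). Neither gene's libraries overlapped between the 2 sets.

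**Figure D4:**
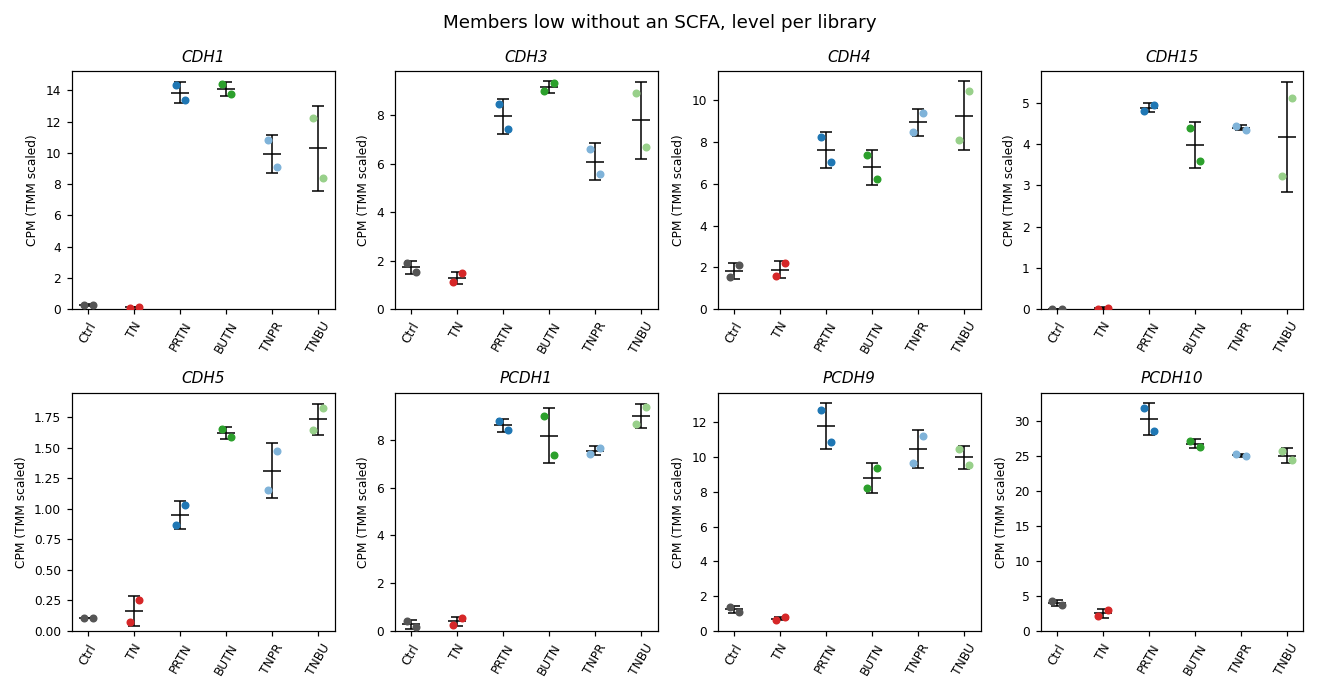
Level in CPM (y axis, from 0, a separate scale for each panel) of 8 members that were low without an SCFA, in each of the 12 libraries (points), by group, with the mean and SD of 2 replicates. In every panel the 8 SCFA libraries lie above the 4 libraries of Ctrl and TN, and the SCFA levels run from 0.868 CPM for CDH5 to 31.9 CPM for PCDH10.

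Of the low type II members, CDH5, the cadherin of endothelial junctions, was 0.103 and 0.108 (Ctrl), 0.0745 and 0.251 (TN), 0.868 and 1.03 (PRTN), 1.66 and 1.59 (BUTN), 1.16 and 1.47 (TNPR) and 1.65 and 1.83 (TNBU) CPM. All SCFA libraries were above all others, with a log2 fold change of 2.59 ± 0.48 (PRTN), 3.36 ± 0.47 (BUTN), 3.04 ± 0.47 (TNPR) and 3.46 ± 0.47 (TNBU) and adjusted p of 4.03e-05 to 5.38e-04. Of the endothelial markers, 6 of the 7 tested were higher in each SCFA group, against 23.1% to 25% of all tested genes. The list summed to 0.430 to 0.687 CPM without an SCFA and 5.60 to 12.8 with one, and the filter could be met through the SCFA libraries. TIE1, a receptor of endothelial cells, held most of the sum in BUTN, with a mean of 0.0731 CPM in TN and 6.41 in BUTN. EMCN was at 0 in all groups but BUTN, and KDR at 0 in Ctrl, TN and TNPR. The part of these genes in the rise of CDH5 was not tested.

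CDH11, the cadherin of mesenchymal and bone-forming cells, was 0.0718 to 0.447 CPM without and 0.520 to 1.25 with an SCFA. Its log2 fold changes ran from 1.66 to 2.52 with adjusted p of 0.00248 to 0.0348. With TN replicate 2 left out it was called in TNBU only, and edgeR and DESeq2 did not call it in BUTN. Beside it, of the 10 fibroblast markers 6 were higher and 2 lower in PRTN and TNPR, 7 and 2 in BUTN and 7 and 1 in TNBU. DCN, a matrix proteoglycan, was lower in all 4 (-0.97 to -0.81 log2). Over all tested genes 23.1% to 25% were higher and 14.8% to 16.9% lower. The sum of the fibroblast markers was 53.5 to 60.6 CPM without and 205 to 258 with an SCFA, most of it COL1A1, a collagen gene. COL1A2 was at 0 in Ctrl and TN, and the part of these genes in the rise of CDH11 was not tested. CDH22, known from pituitary and brain, was at 0 in Ctrl and TN and at 0.219 to 0.487 CPM with an SCFA, at least 3.80-fold higher in PRTN and 2.45-fold in BUTN against a limit of 3 counts per library.

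Among the other CDH genes, CDH17 (liver-intestine cadherin) was 1.33 to 2.23 CPM without and 3.02 to 5.11 with an SCFA (1.06 to 1.52 log2, adjusted p 2.13e-04 to 0.00385). CDH23, which forms the tip links of the inner ear, had 2 counts over both TN libraries. It was 0.0359 to 0.137 CPM without and 0.231 to 0.376 with an SCFA, and 18.9% of its exon bases are also annotated to C10orf105 on the other strand. The ratio to TN was 8.47 in PRTN with an exact 95% counting interval of 2.08 to 75.0. CDH13, a cadherin with a lipid anchor in place of a tail, had log2 fold changes of 0.54 to 1.68 with adjusted p of 0.0876 to 0.619, and CDH26 of -0.13 to 0.33 with 0.588 to 0.983. These 2 genes were not called in any SCFA group.

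All 7 tested non-clustered protocadherins lay higher in the 8 SCFA libraries than in the 4 others, as did 27.6% of all tested genes. PCDH19 among them had 0 counts without an SCFA and 1 to 5 a library with one. It therefore passed the filter through its SCFA libraries alone, and 5 further genes of the class were not tested. The other 6 were called higher in each SCFA group, against 23.1% to 25% of all tested genes. The most abundant, PCDH7, was 92.4 and 93.0 (Ctrl), 46.2 and 56.3 (TN), 127 and 125 (PRTN), 144 and 143 (BUTN), 123 and 114 (TNPR) and 147 and 118 (TNBU) CPM. TN was the lowest group and the SCFA libraries were above Ctrl as well, although the TNBU replicates lay apart. Against TN the log2 fold change was 1.30 ± 0.11 (PRTN), 1.49 ± 0.10 (BUTN), 1.22 ± 0.11 (TNPR) and 1.36 ± 0.11 (TNBU) with adjusted p of 1.68e-07 to 7.63e-07. An antisense transcript without a name is annotated over 12.4% of its exon bases.

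PCDH10, a member of the delta group known from neural circuits, was 4.29 and 3.66 (Ctrl), 2.09 and 2.98 (TN), 31.9 and 28.6 (PRTN), 27.2 and 26.3 (BUTN), 25.3 and 25.0 (TNPR) and 25.8 and 24.4 (TNBU) CPM. Its replicates were close, and the log2 fold change of 3.32 to 3.59 had standard errors of 0.17 and adjusted p of 4.69e-09 to 1.06e-08. PCDH9, also of the delta group, was 0.633 to 1.37 CPM without an SCFA and 8.20 to 12.7 with one, 3.60 to 4.02 on the log2 scale with adjusted p of 1.38e-07 to 4.70e-07. PCDH1, known from airway epithelium, was 0.143 to 0.538 and 7.37 to 9.36 CPM, with 4.25 to 4.51 and adjusted p of 7.62e-07 to 1.18e-06. These 3 genes went from at most 4.29 CPM in any library without SCFA to at least 7.37 CPM in any library with one.

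The remaining non-clustered genes were low throughout. PCDH12, known from endothelium and placenta, was 0.108 to 0.215 CPM without and 0.652 to 1.10 with an SCFA (2.33 to 2.84 log2, adjusted p 1.63e-04 to 8.86e-04). PCDH17 was at 0 in TN and at 0.313 to 0.937 CPM with an SCFA, at least 7.43-fold higher in PRTN and 3.14-fold in BUTN. PCDH19, the gene of an X-linked epilepsy, was at 0 in both TN libraries and was called in TNBU only, with 9 counts over both libraries. Of the neuronal markers, 7 of the 9 tested were higher in each SCFA group, against 23.1% to 25% of all tested genes. The sum of the neuronal markers was 375 to 436 CPM without an SCFA, most of it TUBB3, and 580 to 642 with one. STMN2 was at 0 in every group but BUTN and TNBU. The part of these genes in the protocadherin rise was not tested.

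The clustered protocadherins lie on chromosome 5 and share much of their sequence, so that reads were divided between them. Of their values above 0, 85.0% were not whole numbers, against 19.6% for the other members, and 40.1% of the exon bases of PCDHGC3 also belong to other PCDHG genes. To show parts of promoters of the 3 clusters, 100 bases from 120 to 21 bases before the start were read from RefSeq (GRCh38.p14, plus strand), as chr5:141475846-141475945, chr5:141382622-141382721, chr5:141412867-141412966, chr5:141100353-141100452, chr5:141094495-141094594, chr5:141223223-141223322 and chr5:140875188-140875287, in windows without annotated exon. The genes are examples from each cluster whose window holds a motif of its cluster, and they include the most abundant gamma and beta genes. Capitals mark that motif, on either strand.
PCDHGC3: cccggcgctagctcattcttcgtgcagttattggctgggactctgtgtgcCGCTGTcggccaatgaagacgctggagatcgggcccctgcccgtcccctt
PCDHGA7: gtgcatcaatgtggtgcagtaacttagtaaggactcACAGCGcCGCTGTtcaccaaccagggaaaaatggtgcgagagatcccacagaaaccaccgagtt
PCDHGA10: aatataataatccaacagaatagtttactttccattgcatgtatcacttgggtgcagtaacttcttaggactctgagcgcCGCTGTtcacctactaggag
PCDHB3: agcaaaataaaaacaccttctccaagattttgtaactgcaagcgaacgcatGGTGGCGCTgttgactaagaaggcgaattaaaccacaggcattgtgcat
PCDHB2: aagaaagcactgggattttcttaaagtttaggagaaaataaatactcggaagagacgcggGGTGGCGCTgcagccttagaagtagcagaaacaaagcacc
PCDHB14: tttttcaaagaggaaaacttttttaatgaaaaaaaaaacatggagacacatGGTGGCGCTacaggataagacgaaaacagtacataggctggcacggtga
PCDHA12: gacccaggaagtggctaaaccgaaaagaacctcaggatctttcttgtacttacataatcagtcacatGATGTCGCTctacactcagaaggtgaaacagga

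These motifs were picked after looking over the promoters of the clusters, and both strands were searched from 250 bases before to 50 after the start. GGTGGCGCT was found in 13 of 14 PCDHB promoters, in 0 of 13 PCDHA and 0 of 25 PCDHG promoters, and in 0.501% of 35116 promoters of all genes. GATGTCGCT was found in 9 of 13 PCDHA promoters and in 0.105% of all. CGCTGT was found in 21 of 25 PCDHG promoters (of 20 genes), in 7 of 13 PCDHA and 1 of 14 PCDHB promoters, and in 11.2% of all. The 1 PCDHB promoter with it is that of PCDHB3, where it overlaps GGTGGCGCT by 4 bases. The first 2 motifs both end in the letters CGCT, with which the third begins. GGGCGG was found in 45.0% of all, and in 1 of 13 PCDHA, 0 of 14 PCDHB and 1 of 25 PCDHG promoters. Promoters were matched for 72 of the 93 members, of which 47 are clustered.

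Summed over its genes, which does not depend on how reads were divided within it, the gamma cluster was lower and the beta cluster higher with an SCFA. PCDHG summed to 159.9 and 166.7 (Ctrl), 157 and 174 (TN), 86.5 and 91.0 (PRTN), 85.4 and 82.4 (BUTN), 98.4 and 101.4 (TNPR) and 90.0 and 96.0 (TNBU) CPM. All SCFA libraries were below all others, and the log2 ratio of the group means to TN was -0.90 ± 0.12 (SD, PRTN), -0.98 ± 0.11 (BUTN), -0.73 ± 0.11 (TNPR) and -0.83 ± 0.12 (TNBU). PCDHB summed to 5.31 and 5.09 (Ctrl), 3.92 and 4.49 (TN), 7.07 and 7.46 (PRTN), 9.07 and 8.44 (BUTN), 6.71 and 7.25 (TNPR) and 8.15 and 8.51 (TNBU) CPM, with log2 ratios to TN of 0.79 ± 0.15, 1.06 ± 0.16, 0.73 ± 0.16 and 0.98 ± 0.14. PCDHA was barely present, with 3 to 20.01 counts a library without an SCFA and 32.46 to 63.71 with one. That is 0.112 to 0.717 CPM against 0.961 to 2.23 CPM, without overlap.

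**Figure D5:**
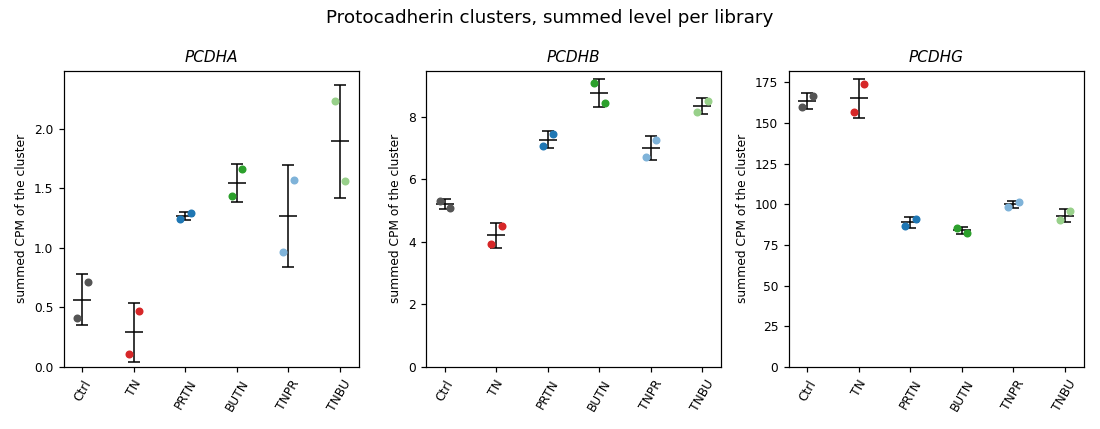
Summed level in CPM (y axis, from 0, a separate scale for each panel) of the PCDHA, PCDHB and PCDHG genes in each of the 12 libraries (points), by group, with the mean and SD of 2 replicates. PCDHA and PCDHB lie higher and PCDHG lower in the 8 SCFA libraries than in the 4 libraries of Ctrl and TN.

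Within the gamma cluster, PCDHGC3 made up 92.7% of the sum in Ctrl and 87.7% to 91.8% in the SCFA groups. It stood at 150.1 and 153 (Ctrl), 145 and 163 (TN), 80.1 and 82.8 (PRTN), 75.0 and 72.2 (BUTN), 89.9 and 93.2 (TNPR) and 80.5 and 87.7 (TNBU) CPM. All SCFA libraries were below all others, and the log2 fold change was -0.91 ± 0.07 (PRTN), -1.06 ± 0.07 (BUTN), -0.75 ± 0.07 (TNPR) and -0.87 ± 0.07 (TNBU) with adjusted p of 9.00e-08 to 1.19e-06. Scaling by library size alone brought TNPR to -0.573, short of a fold change of 1.5. PCDHGA7 was 3.54 to 5.32 CPM without and 0.740 to 1.48 with an SCFA (-2.13 to -1.67 log2, adjusted p 3.60e-05 to 1.11e-04). PCDHGC5, which was called higher in BUTN, against the direction of the cluster, had a mean of 1.55 ± 0.0788 CPM (SD, n = 2) in TN and 2.56 ± 0.132 in BUTN (0.71 ± 0.21, adjusted p 0.0115). DESeq2, and the fits without TN replicate 1 or without BUTN replicate 2, did not call it. PCDHGA12 was also called higher, in BUTN and TNBU, from 2.1 counts over both TN libraries, and PCDHGB2 was called lower in PRTN only. The gamma genes other than PCDHGC3 summed to 9.81 CPM or more without an SCFA. They summed to 10.4 and 10.3 CPM in BUTN, above the lowest Ctrl library, and to 6.38 to 9.52 CPM in the other SCFA groups, below all libraries without SCFA.

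In the beta cluster PCDHB3 led with 40.2% of the sum in Ctrl and 30.2% to 31.4% in the SCFA groups. Its log2 fold change of 0.22 to 0.53 was not called in any of the 4. PCDHB16 was 0.0395 to 0.173 CPM without and 0.601 to 0.902 with an SCFA (3.04 to 3.56 log2, adjusted p 1.04e-04 to 4.11e-04). Transcripts without a name are annotated over 4.84% of its exon bases on the same strand and 21.2% on the other strand. PCDHB2, second in level, was called in BUTN (1.49 ± 0.37, adjusted p 0.00406) and TNBU (1.00 ± 0.39, 0.0421), and PCDHB13, the third, in none. The TNBU call of PCDHB2 was lost without TN replicate 1, TN replicate 2 or TNBU replicate 1, and with DESeq2. Of the 13 tested beta genes, 3, 6, 3 and 6 were higher in PRTN, BUTN, TNPR and TNBU, and 0 were lower. In PRTN and TNPR that is 23.1%, against 23.9% and 24.9% of all tested genes. In the alpha cluster PCDHAC2 held 76.9% of the sum in Ctrl and was not called (0.76 to 1.52 log2, adjusted p 0.0841 to 0.410). PCDHA12 was at 0 in Ctrl and TN and had 22.46 counts over both BUTN libraries, at least 3.03-fold higher. Its 5.71 counts over both TNBU libraries were under the limit of detection, so that its call there gives no fold. PCDHA7 was at 0 in TN and was called higher in PRTN, TNPR and TNBU, and its call in PRTN and TNPR was lost without either TN library.

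The 33 members that were not tested were low in every library, with at most 0.236 CPM, reached by PCDHGA3. They were the type II genes CDH7, CDH8, CDH9, CDH10, CDH12, CDH18, CDH19 and CDH20, the non-clustered PCDH8, PCDH11X, PCDH15, PCDH18 and PCDH20, 11 PCDHA genes, PCDHB1, PCDHB4, PCDHB5, PCDHGA3, PCDHGB5 and the 4 antisense genes. PCDHA8, PCDH11X, PCDH18 and the antisense genes had no count, which allows up to 3 counts per library.

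Propionate and butyrate were compared at the same order of addition. The doses differed, 15 mM against 3 mM, so that compound and dose cannot be told apart. Between PRTN and BUTN, 0 of 60 members were called by limma-voom, edgeR or DESeq2, 9 had an unadjusted p under 0.05, and 0.168% of all genes were called (0.0411% higher and 0.127% lower in PRTN). Between TNPR and TNBU it was 0 members by any of the 3 tools and 3 at an unadjusted p under 0.05, with 0.00822% of all genes called. The 95% interval of the difference between PRTN and BUTN lay within a fold change of 1.5 either way for 11 members, CDH1, CDH2, CDH3, CDH4, CDH16, CDH17, CDH24, PCDH1, PCDH7, PCDH10 and PCDHGC3, and within 2-fold for 20. CDH2, for instance, differed by -0.02 (95% interval -0.15 to 0.10) and CDH24 by -0.01 (95% interval -0.20 to 0.17) on the log2 scale.

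CDH6 and PCDHGC5 were called between PRTN and BUTN in some other fits. CDH6 was 53.6 and 54.0 CPM in PRTN and 84.4 and 80.9 in BUTN, a log2 difference of -0.62 (95% interval -0.99 to -0.25) with an adjusted p of 0.125. Its replicates were close in these 2 groups and far apart in TNPR and TNBU, which share the estimate of spread. A fit of PRTN and BUTN alone called it (adjusted p 0.000601), as did fits without TNPR replicate 1 (0.0265) or TNPR replicate 2 (0.0263). Without TNPR and TNBU, a fit added after the data were seen, it was called with an adjusted p of 0.000435, and PCDHGC5 was called beside it. PCDHGC5 was 1.37 and 1.72 CPM in PRTN and 2.47 and 2.65 in BUTN, -0.74 (95% interval -1.17 to -0.30) with an adjusted p of 0.120 in the fit of all 12. PCDH17, PCDH9 and CDH5 had unadjusted p under 0.05 as well, with differences of 1.19 (95% interval 0.48 to 1.90), 0.42 (95% interval 0.16 to 0.68) and -0.77 (95% interval -1.32 to -0.22).

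The time of addition was compared within each SCFA. For propionate, 0 of 60 members were called between TNPR and PRTN by limma-voom, edgeR or DESeq2, 7 had an unadjusted p under 0.05, and 0.16% of all genes were called (0.0534% higher and 0.107% lower in TNPR). The 95% interval of this difference lay within a fold change of 1.5 either way for 11 members and within 2-fold for 26. Between TNBU and BUTN that held for 10 and 21 members. For butyrate, 0.267% of all genes were called between TNBU and BUTN (0.0945% higher and 0.173% lower in TNBU), and among the members only CDH6 was. It was 84.4 and 80.9 CPM in BUTN and 51.7 and 37.8 in TNBU, without overlap, a log2 difference of -0.90 (95% interval -1.28 to -0.52) with an adjusted p of 0.0398. The call stood in only 3 of the 12 fits that leave out a library (without TNPR replicate 1, TNPR replicate 2 or TNBU replicate 1), and over the 12 the difference was -1.14 to -0.68 with adjusted p of 0.00325 to 0.329. For CDH1, whose values stand above, the difference between TNBU and BUTN was -0.48 (95% interval -0.79 to -0.17) with an adjusted p of 0.164, and that between TNPR and PRTN was -0.48 (95% interval -0.79 to -0.17) with an adjusted p of 0.239. Its libraries were lower with TNF-α first for both SCFAs and did not overlap, but neither difference was called with all 12 libraries. Without TNBU replicate 1, CDH1 and CDH16 were also called between TNBU and BUTN. Whether the effect of time differed between the SCFAs was tested as a difference of differences, which called 0 members by limma-voom, edgeR or DESeq2, with 5 members at an unadjusted p under 0.05. Over all genes limma-voom called 0, edgeR 1 and DESeq2 4. For CDH6 it was 0.76 (95% interval 0.22 to 1.30), with an adjusted p of 1.00.

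Genes that act with cadherins were counted in lists. Of 14 tested catenins and armadillo partners, 4 were higher and 1 lower in PRTN, BUTN and TNBU, and 3 and 2 in TNPR. Among all tested genes, 23.1% to 25% were called higher and 14.8% to 16.9% lower in these comparisons. CTNNB1 (beta-catenin) was called lower in TNPR only (-0.59 ± 0.06, adjusted p 5.37e-06), and CTNNA1 (alpha-catenin, -0.38 to -0.22 log2) and CTNND1 (p120-catenin, -0.14 to -0.05) were not called. JUP, shared by adherens junctions and desmosomes, had -0.53 to -0.28 and was not called. PKP3, a desmosomal plakophilin, was lower in all 4 (-2.25 to -1.60) and PKP2 higher (1.49 to 1.78), and PKP1, ARVCF and CTNNA2, a neural alpha-catenin listed at 0 in TN, made up the other higher genes.

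Of 7 tested repressors of CDH1, 4 were higher and 1 lower in PRTN, and 3 and 1 in each other SCFA group. For this list and the next, the shares of all tested genes were 23.1% to 25% higher and 14.8% to 16.9% lower. SNAI1, SNAI2 and TCF4 were higher in all 4 groups, TWIST1 in PRTN only, and ZEB2 was lower in all 4. SNAI1 had means of 13.6 CPM in TN and 46.0 in PRTN (1.49 to 1.76 log2 over the 4 groups, adjusted p 9.28e-09 to 5.09e-08), and ZEB2 64.8 and 14.4 (-2.37 to -1.88, 1.35e-09 to 6.74e-09). ZEB2 was also the 1 member of this list called between TN and Ctrl (0.66 ± 0.08, adjusted p 6.55e-04). ZEB1 was not called (-0.54 to -0.13). Of 11 tested genes for proteases that cut cadherins or for gamma-secretase subunits, 1 was higher (ADAM8, 1.45 to 1.73). The numbers lower were 4, 2, 4 and 4 in PRTN, BUTN, TNPR and TNBU, with NCSTN, a subunit of gamma-secretase, lowest (-1.32 to -1.18). ADAM10, the main sheddase of CDH1 and CDH2, was not called (-0.18 to -0.02).

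Of 13 tested regulators of clustered protocadherin promoters, 1 was higher and 7, 7, 8 and 8 were lower. CTCF, which binds these promoters and their enhancers, had a mean of 101 CPM in TN and 48.0 in TNPR (-1.07 to -0.67 log2 over the 4 groups, adjusted p 7.56e-07 to 4.74e-05). STAG2, a cohesin subunit, had the lowest fold changes of the list (-1.65 to -1.32), RAD21 was also lower (-0.81 to -0.64), and SMC1A (-0.27 to -0.19) and SMC3 (-0.33 to -0.19) were not called. DNMT3B, a DNA methyltransferase, was the 1 higher gene (0.87 to 1.33). Over all genes 23.1% to 25% were higher and 14.8% to 16.9% lower, and these lists are given as counts without a test of the list.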

How the data were processed

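RNA of 12 HK2 cultures (6 groups of 2) was sequenced. The authors aligned reads with STAR 2.6.1a and deposited RSEM expected counts per gene on GRCh38 (names per the labels and methods). FastQC 0.11.5 is also named. Libraries were stranded (TruSeq Stranded mRNA), but the strand setting of the counting is not given in the sources used here, so overlapping genes are uncertain.

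The members and gene lists were chosen with earlier results of these data known. Named with full statistics were tested CDH and non-clustered PCDH genes with a group mean of at least 1 CPM and the 3 leading genes of each cluster. Clustered genes called against most of their cluster were also named. From other lists, called genes with the largest and smallest fold changes and those over 10 CPM were to be named, but not all are. The largest fold changes of the proximal tubule markers (5.79 to 6.84 log2) and of the large and other cadherin superfamily genes (6.16 to 6.45), for instance, are those of genes given no fold change above. PCDHB16, PCDHGB2, PCDHB14, PCDHGA10 and the remaining listed genes named were chosen after their values were seen. Genes with a geometric mean of at least 1 (1 added to each count) over the 12 libraries were kept. Unrounded counts were scaled with TMM (edgeR 4.0.16) and fitted in R 4.3.3 with limma-voom 3.58.1, using 1 fit of 6 groups and Benjamini-Hochberg adjustment over the 24342 genes kept. The steps were tested on simulated data, with changes placed only in genes well above the limit of detection. That run does not cover members with few counts. Exon lengths came from GENCODE 44. Exact intervals of count ratios and the 3-count limit cover counting error only, whereas intervals of log2 differences are those of limma-voom. Alternatives were edgeR, DESeq2 1.42.0 on rounded counts, other scalings, filters, thresholds and samples, and a replicate block. A fit without TNPR and TNBU was added after the data were seen.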

Additional observations from a re-analysis of the deposited data

Results flagged for a closer look

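CDH6 was the 1 member called between the orders in which an SCFA and TNF-α were added. The log2 difference between TNBU and BUTN was -0.90 ± 0.18 (SE, 95% interval -1.28 to -0.52, limma-voom adjusted p 0.0398), from 84.4 and 80.9 CPM in BUTN to 51.7 and 37.8 CPM in TNBU. edgeR (adjusted p 0.0465) and DESeq2 (0.00924) also called it. It was called in 3 of the 12 fits that leave out a library, and not in the fit of TNBU and BUTN alone (adjusted p 0.177). For propionate the difference was -0.15 (95% interval -0.53 to 0.24), and the difference of the 2 differences, 0.76 (0.22 to 1.30), did not pass adjustment.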

How the results depend on the processing

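No called result reversed its direction under the alternatives run. Of the values of single members, 1085 stayed on their side of the thresholds, 25 became weaker and 15 stronger. The number of members called between TN and Ctrl, 2 in the report, was 4 with library size alone, 1 with the geometric mean taken without an added count, 0 with only the groups compared, 1 without TNPR and TNBU, 7 with unadjusted p, 1 at a fold change over 2 and 1 to 1 with each library left out. Between TNPR and TN, 3 rather than 5 were lower at a fold change over 2. Between TNBU and TN, 17 rather than 27 were higher with DESeq2, and over all tested genes 4954 rather than 6094. Between PRTN and BUTN (0) it was 1 with only the groups compared, 2 without TNPR and TNBU and 8 with unadjusted p, and 0 to 1 with each library left out. Unadjusted p gave 3 between TNPR and TNBU and 5 for the difference of timing. Between TNBU and BUTN (1) it was 0 without a filter beyond a count of 1 in 1 library, 0 with only the groups compared, 5 with unadjusted p, 0 at a fold change over 2 and 0 to 3 with each library left out. The numbers over all genes moved as well. Between TN and Ctrl, 186 were higher and 130 lower in the main fit. They were 144 and 181 with library size alone, and 79 and 12 with only the groups compared. With the geometric mean taken without an added count they were 207 and 138. Between PRTN and BUTN, 10 and 31 became 57 and 121 with only the groups compared. Between TNBU and BUTN, 23 and 42 became 2 and 2 with only the groups compared. The cause of these shifts was not tested.

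Library size alone moved the median of all genes from 0.0788 to 0.118 up to 0.232 to 0.291 in the SCFA groups. With it the summed PCDHB log2 ratio was 0.944 in PRTN, 0.905 in TNPR and 1.181 in TNBU, and that of PCDHG was -0.740, -0.823, -0.551 and -0.632 in PRTN, BUTN, TNPR and TNBU.

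Nothing in the labels pairs same-numbered replicates. Correlations of their deviations were -0.0791 to 0.240, and only TNPR and TNBU (0.240) were over 0.1. The replicate block left 2 members called between TN and Ctrl and 1 between TNBU and BUTN. At 0.0867 to 0.112 CPM for 3 counts, changes of members near 0 could not be sized.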

Other observations

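Desmosomal cadherins, which join epithelial cells through intermediate filaments, fell where they were abundant. The mean level of DSC2 was 56.9 CPM in TN against 14.7 (PRTN) and 20.5 (BUTN) with an SCFA, that of DSC3 was 104 against 26.5 and 31.6, and that of DSG2 was 356 against 188 and 221. These 3 of the 5 tested were called lower in each SCFA group by limma-voom, and DSG3, near 0 in TN, was called higher. Over all tested genes 14.8% to 16.9% were called lower and 23.1% to 25% higher.

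Of 17 tested large and other cadherin superfamily genes, the numbers higher and lower were 9 and 3 (PRTN), 8 and 2 (BUTN), 7 and 2 (TNPR) and 6 and 1 (TNBU), where 23.1% to 25% of all genes were higher and 14.8% to 16.9% lower. FAT4, a partner of DCHS1 in planar polarity, was called lower in TN than in Ctrl (-1.26 log2) and higher in each SCFA group than in TN (3.10 CPM in TN, 12.8 in PRTN). FAT1, the most abundant of the list with CLSTN1, was not called. CELSR3, a cadherin of planar polarity, was called lower in each SCFA group (-1.52 to -1.25).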
